A study of Mus musculus with 2 samples.

Results

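Among 7709 mouse embryonic stem cells, the 770 with the highest summed level of 9 genes, led by Ano3 and Anks1b, were described against the other 6939 cells. The score of a cell was its number of UMIs (unique molecular identifiers, each marking 1 captured molecule) of Ano3, Anks1b, Plxdc2, Grip1, Samd12, Serpine2, Svop, Dscaml1 and Stox2 per 10000 UMIs, and the top 10% of the pooled cells are called high-score cells below. All cells were E14 embryonic stem cells of the 129/Ola background, grown in serum with leukaemia inhibitory factor and transfected using Lipofectamine 2000. The control library held cells given a control siRNA and the sonKD library cells given an siRNA against Son, which encodes a scaffold protein of nuclear speckles. Both were harvested 24 hours after transfection, frozen, thawed, sorted on the viability dye 7-AAD and barcoded with 10x Genomics 3' v3 chemistry. Each group was 1 library from 1 cell line, so there is no replicate and no test. Intervals are at 95% and cover counting error only, and a cell is not a replicate of its culture.

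Embryonic stem cells renew themselves while Pou5f1, Sox2 and Nanog keep them pluripotent. They divide with a short G1 phase, and they carry the tumour suppressor p53, a transcription factor that is stabilised by DNA damage and other stresses. Its targets include its own inhibitor Mdm2, the cell cycle inhibitor Cdkn1a and the polo-like kinase Plk2. Several of the 9 score genes are better known from neurons. Anks1b and Grip1 encode postsynaptic scaffold proteins, Svop a synaptic vesicle membrane protein, Dscaml1 a neural cell adhesion molecule and Ano3 a membrane protein of the anoctamin family. Serpine2 encodes a secreted inhibitor of serine proteases, Plxdc2 a transmembrane protein with a plexin domain, Samd12 a protein with a sterile alpha motif and Stox2 a storkhead box protein.

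The deposited counts came to 71046373 UMIs over all control barcodes and 60352438 over all sonKD barcodes. Barcodes with at least 2500 UMIs, at least 1000 genes and at most 10% of their UMIs in mitochondrial genes were kept, 4978 in control and 2731 in sonKD. The limit on mitochondrial UMIs removed 11.2% of the control and 27.9% of the sonKD barcodes that met the other limits. Kept cells had a median of 7737.5 UMIs in control and 11612 in sonKD, and 2 barcode sequences occurred among the kept cells of both libraries. Son, the siRNA target, stood at 191 CPM (the count per 1000000 of the summed UMIs of the cells) in control and 146 in sonKD high-score cells, and at 167 and 102 CPM in the other cells.

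The high-score cells were 472 of 4978 control cells, 9.48% (exact binomial interval 8.68 to 10.3%), and 298 of 2731 sonKD cells, 10.9% (9.77 to 12.1%). These intervals overlap. The lowest score among them was 6.52 per 10000 UMIs, and the highest score outside was 6.52 as well, with 75 cells within 10% above the limit and 104 within 10% below it. The score is therefore a range with no gap at the limit. Their median score was 11.1 in control and 11.6 in sonKD, with highest values of 83.2 and 69.9. Of the other cells, 51.5% in control and 39.95% in sonKD had no UMI of any of the 9 genes. High-score cells carried a median of 7 UMIs from 4 of the genes in control and 11 UMIs from 5 of the genes in sonKD. At least 3 of the genes were found in 89.2% of them in control and 92.3% in sonKD, against 7.19% and 14.3% of the other cells. High-score cells were shallower, with medians of 6157.5 against 7859 UMIs in control and 8737.5 against 11805 in sonKD. Their median share of mitochondrial UMIs was higher, 5.18% against 3.56% in control and 5.57% against 4.0% in sonKD. At their median depth the limit corresponds to about 4.5 UMIs, so membership of cells near it rests on a few molecules.

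The 9 genes chose the cells, and their levels are given as a description. Ano3 stood at 376 CPM in the high-score cells and 15.4 in the other cells of control, and at 344 against 16.7 in sonKD. Anks1b stood at 120 against 3.94 CPM in control and 113 against 5.27 in sonKD. Grip1 was at 231 against 22.5 CPM and 248 against 23.4. Plxdc2 was at 165 against 11.3 CPM and 141 against 12.3. The remaining 5 genes lay between 56.2 and 149 CPM in the high-score cells of either library and between 4.18 and 27.9 CPM in the other cells. Ano3 was thus the most abundant of the 9 per library and Dscaml1 the least, although 3' counts were not compared per length. After thinning every cell to 2500 UMIs, Ano3 was detected in 56.99% of high-score cells and 3.73% of other cells in control and in 54.4% and 4.15% in sonKD. Without thinning these shares were 80.7% and 10.1%, and 84.6% and 13.5%. Anks1b, the other gene in the name of these cells, was found in 41.5% of them in control and 47.3% in sonKD without thinning, so many high-score cells had no Anks1b UMI. In droplets of 100 to 500 UMIs, which hold mostly free RNA, the 9 genes summed to 34.0 CPM in control and 30.2 in sonKD, against 212 and 230 CPM over all kept cells.

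Cells were also chosen again on 8 of the 9 genes and the gene left out was measured in them. The 9 genes were themselves picked from these libraries as going together, so a higher level of the gene left out was fixed by that choice, and the values only describe its size. Between 669 and 736 of the 770 cells stayed the same, depending on the gene. Every gene was then higher in the chosen cells of both libraries. Anks1b, left out of its own selection, was at 107 CPM (95.7 to 119) against 4.98 (4.29 to 5.74) in control and at 106 (94.3 to 119) against 5.92 (5.07 to 6.88) in sonKD. The corresponding log2 ratios were 4.42 and 4.16. Ano3 had log2 ratios of 3.86 in control and 3.81 in sonKD, and Serpine2 3.81 and 3.35. Plxdc2 followed with 3.37 and 3.17, and Dscaml1 with 3.02 and 2.62. The smallest were those of Samd12 at 2.08 and 2.03 and Stox2 at 2.21 and 2.17. The 8 remaining genes share the depth and the cells of the ninth.

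**Figure D1:**
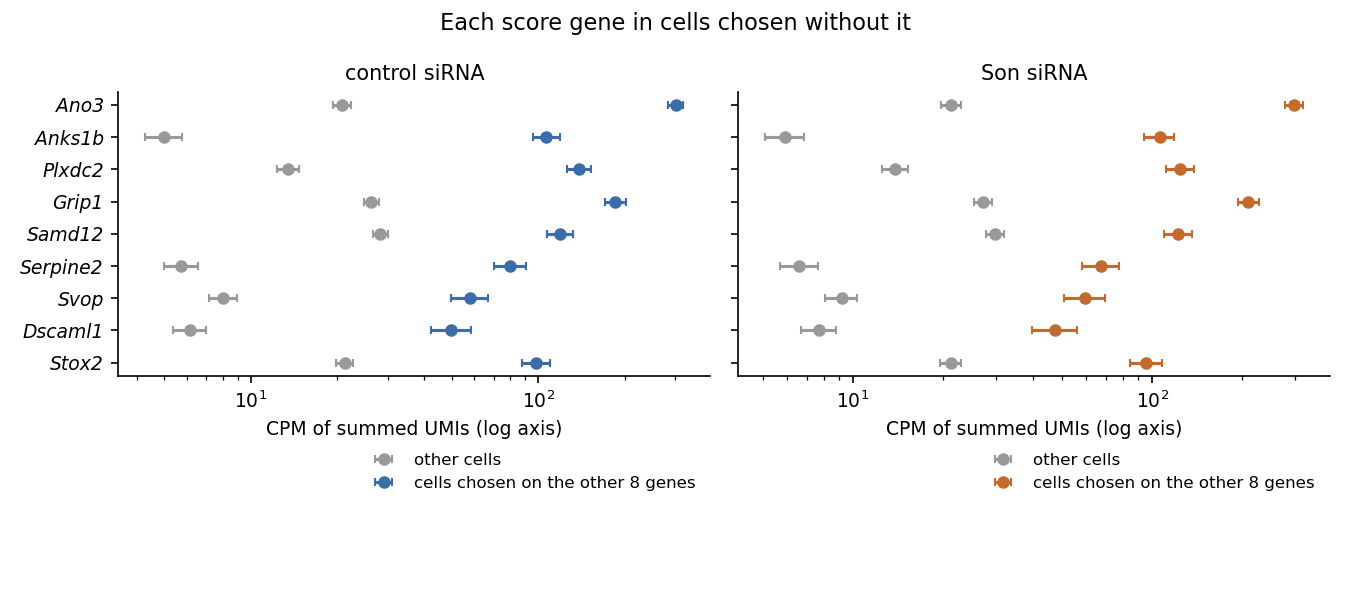
Level of each of the 9 score genes (CPM on a log axis) in cells chosen on the other 8 genes (coloured) and in the remaining cells (grey), for the control siRNA and the Son siRNA library, with exact Poisson 95% intervals. For every gene the coloured point lies to the right of the grey one in both libraries, from 4.09-fold for Samd12 in sonKD to 21.4-fold for Anks1b in control.

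The 9 genes lie on 7 chromosomes (GENCODE M21 on GRCm38), and only chromosomes 2 and 10 hold a pair. Ano3 spans 295.7 kb on chromosome 2 from 110655201 to 110950923 on the minus strand. Anks1b spans 1099.8 kb on chromosome 10 from 89873509 to 90973300 on the plus strand, with Grip1 on the same strand from 119453830 to 120087261. Of the 9 genes, 5 span at least 300 kb.

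Genes outside the score were then compared between the high-score cells and the other cells of the same library. Of 8343 genes at a mean of 10 CPM over the 4 sums of cells, 996 (11.9%) were at least 1.5-fold higher in the high-score cells of both libraries and 100 (1.2%) were at least 1.5-fold lower in both. The median log2 ratio over all genes tested was 0.10 in control and 0.11 in sonKD. The ratio had the same sign in both libraries for 6945 genes (83.2%), and across genes, which do not count as replicates, Pearson's r of the control and sonKD ratios was 0.887. Scaling by TMM factors in place of the total moved all ratios by -0.29 in each library and gave 458 genes higher and 825 lower, so the balance of higher against lower genes depends on the scaling. The order of the genes within a library does not.

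**Figure D2:**
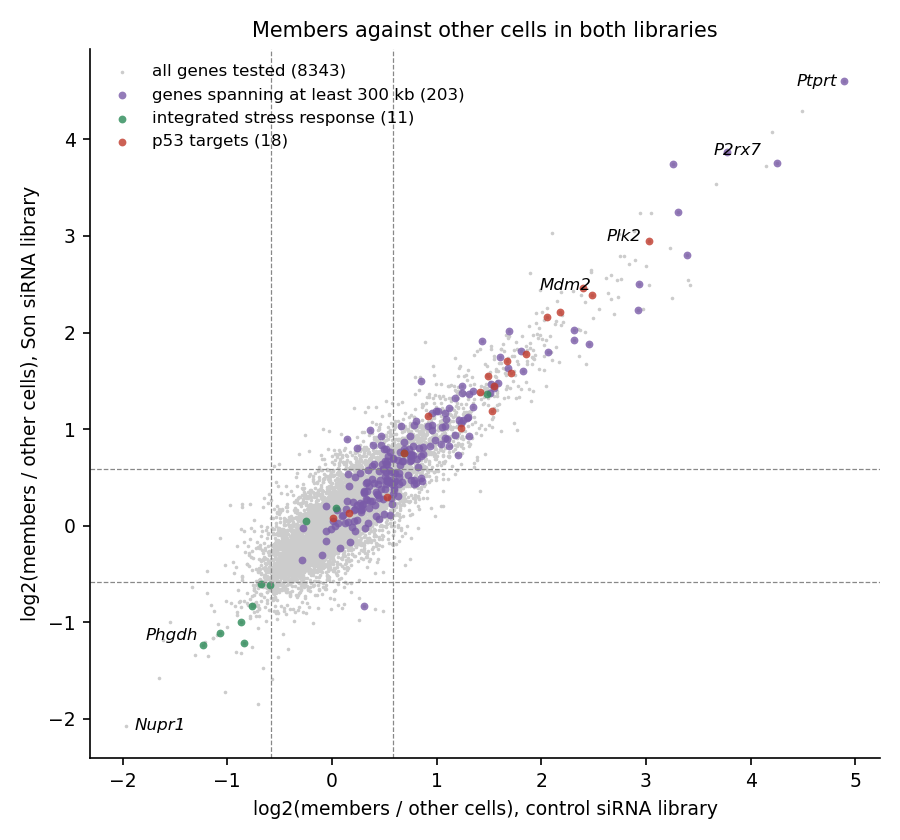
Log2 ratio of high-score cells over other cells for each gene tested, in the control siRNA library (x axis) and the Son siRNA library (y axis), with 3 gene lists coloured and dashed lines at 1.5-fold. The points follow the diagonal, with Ptprt at 4.89 and 4.60 at the upper end and Nupr1 at -1.96 and -2.07 at the lower end.

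The 12 genes with the highest ratios in both libraries were Ptprt, 5830418P13Rik, Cyyr1, Nfia, Lrmda, P2rx7, Gria3, Hs3st4, Hdac9, Neurod1, Plk2 and Gm31718. Ptprt, a receptor tyrosine phosphatase known from the brain, stood at 104 CPM in high-score cells and 3.49 in other cells of control, and at 88.8 and 3.66 in sonKD. Its log2 ratios were 4.89 (4.59 to 5.19) and 4.60 (4.27 to 4.94). P2rx7, an ion channel gated by extracellular ATP, was at 87.6 against 4.95 CPM in control and 78.5 against 5.96 in sonKD, with log2 ratios of 4.15 (3.87 to 4.42) and 3.72 (3.43 to 4.02). Cyyr1 had log2 ratios of 4.21 and 4.08, and the transcription factor gene Nfia 3.78 and 3.87. Gria3, a subunit of AMPA-type glutamate receptors, had 3.67 and 3.54, and the histone deacetylase gene Hdac9 3.31 and 3.24. Neurod1, a neurogenic transcription factor gene, had 3.04 and 3.24, at 21.2 CPM in control and 31.3 in sonKD high-score cells. Neurod1 overlaps Cerkl on the same strand, and 5830418P13Rik is annotated as antisense to Bfsp2, so their reads cannot be told apart here with certainty. Most of the 12 passed the filter of 10 CPM through their level in the high-score cells. Without thinning, Ptprt was detected in 28.4% of high-score cells in control and 34.2% in sonKD, and P2rx7 in 16.9% and 24.8%. Nfia, Gria3 and Neurod1 were each found in 8.90 to 20.8%, so most high-score cells lacked a UMI of each of these genes. In control, Ptprt was at 38.8 CPM in cells from the limit to a score of 10 and at 354 above a score of 20. Of the 12, 5 spanned at least 300 kb.

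Targets of p53 were higher as a group in the high-score cells. Of 20 listed targets, 18 reached 10 CPM, and all 18 had positive log2 ratios in both libraries, with medians of 1.54 in control and 1.5 in sonKD. Of these, 15 were at least 1.5-fold higher in both libraries and 0 lower, against 11.9% higher and 1.2% lower over all genes. Mdm2, the ubiquitin ligase that degrades p53, was at 582 CPM in high-score cells and 104 in other cells of control, and at 487 and 93.1 in sonKD. Its log2 ratios were 2.48 (2.40 to 2.56) and 2.39 (2.29 to 2.48). Plk2 was at 90.5 against 11.1 CPM and 87.1 against 11.3, or 3.02 (2.80 to 3.25) and 2.95 (2.70 to 3.19) on the log2 scale. Trp53inp1, which promotes p53 activity and autophagy, had log2 ratios of 2.40 and 2.46, the membrane protein gene Perp 2.18 and 2.22, and the antiproliferative gene Btg2 2.06 and 2.16. Cdkn1a was at 130 against 44.4 CPM in control and 116 against 42.3 in sonKD. Ccng1, encoding cyclin G, had log2 ratios of 1.71 and 1.58, and Bbc3, a proapoptotic gene of the Bcl2 family, 1.41 and 1.38. Bax, another proapoptotic gene, was nearly level at 558 against 555 CPM in control and 516 against 487 in sonKD, and Rps27l and Aen were also under 1.5-fold. The 2 listed genes under 10 CPM were Pmaip1 and Fas. The summed list of 20 had smaller log2 ratios than the medians, 0.93 (0.90 to 0.96) in control and 0.84 (0.81 to 0.87) in sonKD. In the other control cells Bax made up 555 of its 1909 CPM. At 2500 UMIs per cell, a high-score cell held a median of 9 UMIs from the list in both libraries, and another cell 4 in control and 5 in sonKD. Free RNA carried 2502 CPM of the list in control and 2689 in sonKD, so its part in the low counts per cell was not tested.

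**Figure D3:**
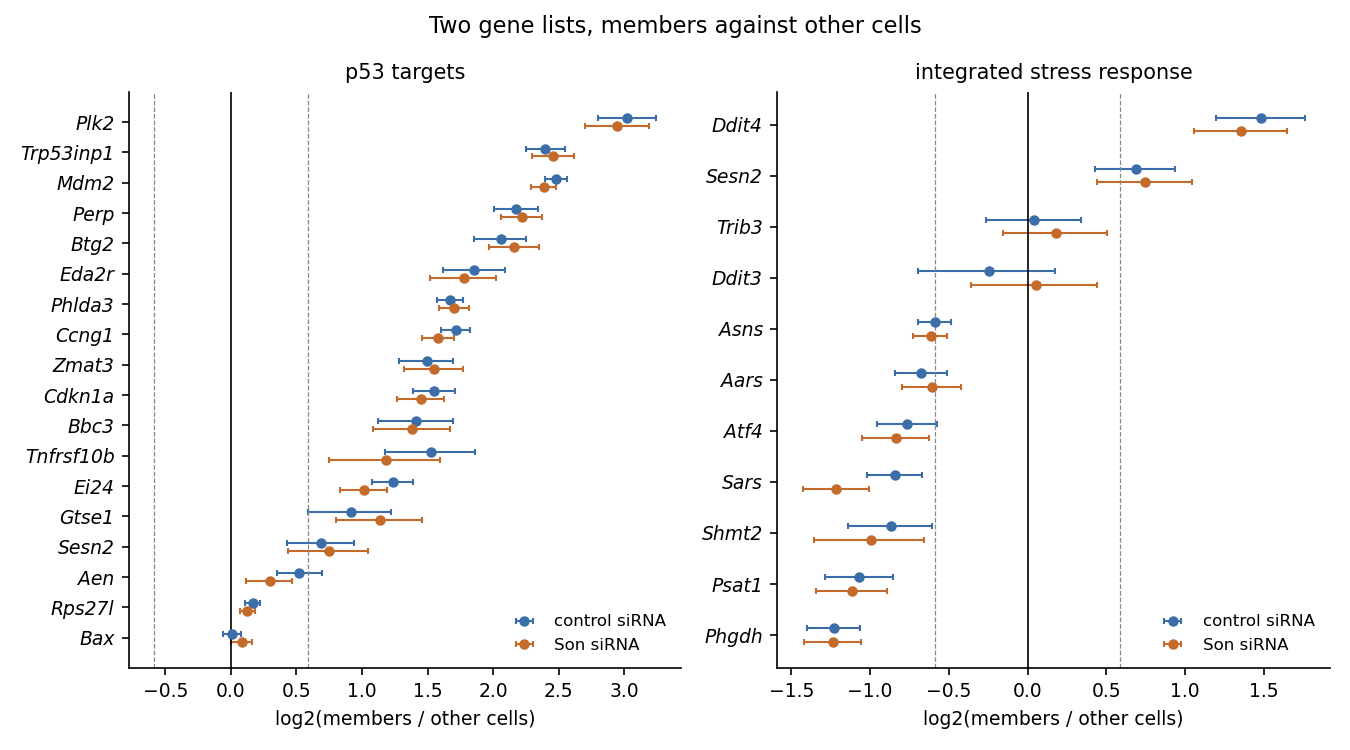
Log2 ratio of high-score cells over other cells for the 18 p53 targets (left) and the 11 integrated stress response genes (right) at a mean of 10 CPM, per library, with exact 95% counting intervals and dashed lines at 1.5-fold. Plk2, Trp53inp1 and Mdm2 lead the p53 list and Bax stays near 0, while Phgdh and Psat1 lie below -1.0 in both libraries.

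Promoter sequences are shown for both groups of genes, since p53 targets were higher in cells chosen on the score genes. The RefSeq table (GRCm38.p6, reference strain) holds windows from 250 bases before to 50 after a start, and it matched 5 of the 9 score genes, 15 of the 20 p53 targets and 10 of the 12 highest genes. The p53 response element consensus decamer, of which p53 binds a pair, reads the same on both strands and was searched in each window. It occurred in 9 of 21 promoters of the p53 list, in 1 of 12 promoters of the score genes, in 1 of 13 promoters of the highest genes and in 8.36% of all 32851 promoters. Below, the 250 bases before the start are printed with matches in capitals, for Cdkn1a (chr17:29090729-29090978, plus strand), Mdm2 (chr10:117710759-117711008, minus strand), the 1 of 5 Anks1b starts with a match (chr10:90575477-90575726, plus strand) and the Ano3 start that lies farther upstream of the other (chr2:110950245-110950494, minus strand).
Cdkn1a: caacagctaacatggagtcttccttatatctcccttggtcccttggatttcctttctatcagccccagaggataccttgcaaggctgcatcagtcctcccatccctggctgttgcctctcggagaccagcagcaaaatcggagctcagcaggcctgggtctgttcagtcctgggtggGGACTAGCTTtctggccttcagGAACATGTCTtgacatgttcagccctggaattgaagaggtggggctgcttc
Mdm2: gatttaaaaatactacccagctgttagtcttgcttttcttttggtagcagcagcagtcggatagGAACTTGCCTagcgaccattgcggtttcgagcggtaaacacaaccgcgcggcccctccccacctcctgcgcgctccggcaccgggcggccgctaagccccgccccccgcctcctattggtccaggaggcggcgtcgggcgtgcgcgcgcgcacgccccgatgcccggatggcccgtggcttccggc
Anks1b: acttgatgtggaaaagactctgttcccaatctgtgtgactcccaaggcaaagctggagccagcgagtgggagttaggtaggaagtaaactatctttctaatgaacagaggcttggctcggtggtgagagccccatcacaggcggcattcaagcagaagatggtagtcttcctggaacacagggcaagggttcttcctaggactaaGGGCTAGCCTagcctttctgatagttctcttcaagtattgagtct
Ano3: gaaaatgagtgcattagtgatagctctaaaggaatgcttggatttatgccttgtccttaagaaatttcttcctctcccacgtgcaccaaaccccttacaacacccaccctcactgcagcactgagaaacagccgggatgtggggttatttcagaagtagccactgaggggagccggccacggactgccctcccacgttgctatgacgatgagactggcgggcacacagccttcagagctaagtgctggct
At the start shown, Cdkn1a had 2 matches, which begin 73 and 51 bases before it, and the 250 bases before its other start held none. Mdm2 had 1 at 186 bases and Anks1b had 1 at 45 bases. Plk2, which led the p53 list, had no match in the same stretch. Neither Ano3 window held one. A match is a string of letters and not a measured site, and no match says only that the letters are not in this window.

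High-score cells and cells rich in p53 targets overlapped in part. Of the 770 high-score cells, 388 (50.4%) were also among the 770 cells with the highest summed share of the p53 list, against 5.51% of the other cells. In control the overlap was 225 of 472 high-score cells and in sonKD 163 of 298. When the other cells were weighted to the same distribution of p53 list share as the high-score cells, the smaller of the libraries' log2 ratios was 1.76 for Ptprt and 2.27 for P2rx7, neither of which is in that list, where it had been 4.60 and 3.72. The median of the integrated stress response list, given in the next paragraph, was then -0.37 as a mean of both libraries, where it had been -0.65. The weights used the share of the summed p53 list and did not level each gene in it. Plk2, a listed target, was still at 0.77 after weighting, where it had been 2.95.

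Most genes listed for the integrated stress response were lower. This response is the program by which the transcription factor Atf4 raises amino acid synthesis and transport. Of 14 listed genes, 11 reached 10 CPM, with median log2 ratios of -0.68 in control and -0.62 in sonKD, and 7 were at least 1.5-fold lower and 2 higher in both libraries, against 1.2% lower and 11.9% higher over all genes. Phgdh, the first enzyme of serine synthesis, was at 94.6 CPM in high-score cells and 222 in other cells of control, and at 94.9 and 223 in sonKD, with log2 ratios of -1.23 (-1.40 to -1.06) and -1.24 (-1.42 to -1.06). Psat1, the next enzyme of that pathway, had -1.07 and -1.11. Psph, the enzyme after it, is in no list but among the 12 lowest genes, with -1.21 in each library. Atf4 itself was at 77.3 against 131 CPM in control and 68.2 against 122 in sonKD. The other genes at least 1.5-fold lower were Asns, Aars, Sars and Shmt2. The list was not uniform, since Ddit4, an inhibitor of mTOR signalling, was higher with 1.48 and 1.36, as was Sesn2 with 0.69 and 0.75, which is also in the p53 list. Mthfd2, a mitochondrial folate enzyme, and the alanine aminotransferase gene Gpt2 were among the 12 lowest genes, with -1.31 and -1.34, and -1.62 and -1.19. The lowest of all was Nupr1, a stress-induced nuclear protein gene, at 17.0 against 66.3 CPM in control and 17.8 against 74.7 in sonKD. The others of the 12 were Fgf17, Krt17, Tcl1, Spp1, Tgm2 and Ppp1r1a. Among 18 glycolysis and hypoxia genes at 10 CPM the medians were -0.29 and -0.34, with Tpi1, Aldoa and Ldha at least 1.5-fold lower and 0 higher. With TMM factors 7 of the 18 were lower, against 825 of 8324 over all genes.

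Core pluripotency genes were slightly lower by their median. Pou5f1, a core pluripotency factor, was detected in 98.3% of high-score cells in control and 98.0% in sonKD, against 99.5% and 99.2% of other cells, without thinning. It stood at 975 CPM in high-score cells and 1115 in other cells of control, and at 828 and 925 in sonKD. Free RNA held more of it, 1321 CPM in control and 1078 in sonKD droplets, so its detection in a cell is no measure of expression there. Sox2 was at 374 against 350 CPM and 367 against 333, and it was detected in 80.9% of high-score cells in control and 85.2% in sonKD. Nanog was at 140 against 172 CPM and 118 against 156. It was detected in 51.3% of high-score and 70.0% of other cells in control and in 52.7% and 76.0% in sonKD, at the depths given above. The 7 core pluripotency genes had median log2 ratios of -0.31 and -0.27, with 0 of 7 past 1.5-fold in both libraries. Over all genes 11.9% were higher and 1.2% lower. The mean of the core list's medians, -0.29, was -0.11 with at most 5% mitochondrial UMIs, -0.12 with other cells weighted by p53 list share and -0.57 with TMM factors, under which Lin28a, Nanog and Tdgf1 were at least 1.5-fold lower in both libraries. With TMM factors 825 of 8324 genes tested were lower. Of 16 naive pluripotency genes at 10 CPM, Tcl1 and Spp1 were at least 1.5-fold lower in both libraries and 0 higher, with medians of -0.10 and -0.06. That is 12.5% lower against 1.2% over all genes. With TMM factors 5 of the 16 were lower, against 825 of 8324 over all genes. Tcl1, a coactivator of the kinase Akt, was at 38.8 against 88.0 CPM in control and 32.0 against 81.3 in sonKD. Of the formative and primed list, 6 of 14 genes reached 10 CPM, 3 positive and 3 negative in both libraries, with medians of 0.03 and -0.03. Otx2 was the 1 gene past 1.5-fold, with 0.62 in each library, which is 16.7% of the 6 against 11.9% over all genes. It stood at 16.0 against 10.4 CPM in control and 14.2 against 9.24 in sonKD. With TMM factors 0 of the 6 genes were past 1.5-fold.

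Single markers of other cell types were mostly under 10 CPM or not detected, including those of neurons, from which several of the score genes are known. The summed primitive endoderm, trophectoderm and mesoderm lists were nonetheless higher in high-score cells, with values given below. Of 14 markers of differentiated neurons, 11 were under 10 CPM, and Slc17a6 and Dcx had no UMI in any of the 4 sums. The summed list stood at 482 against 512 CPM in control and 468 against 480 in sonKD, nearly all of it Stmn2, which was at 432 against 459 and 414 against 428. Of 18 further postsynaptic and neural adhesion genes, 17 were under 10 CPM, but their sum was higher in high-score cells. It stood at 72.8 against 52.8 CPM in control, a log2 ratio of 0.46 (0.26 to 0.66), and at 78.5 against 45.1 in sonKD, a ratio of 0.80 (0.59 to 1.01). The 8 fibroblast markers summed to 3.85 against 4.66 CPM in control and 3.55 against 4.83 in sonKD, and Col3a1, Postn and Lum had no UMI in the 4 sums. In the neuroectoderm list Tubb3 was lower, with -0.92 and -1.31, and the summed list had log2 ratios of -0.26 and -0.50. Of the primitive endoderm list, 8 of 12 genes, among them Gata4, Gata6 and Sox17, were under 10 CPM, while Col4a1, a basement membrane collagen, was higher with 1.63 in each library. Nodal, a signalling ligand of the mesoderm list, was higher with 0.97 and 1.27, and Krt18 and Tfap2c of the trophectoderm list with 1.04 and 1.05, and 1.26 and 1.55. Without thinning, Krt18 was detected in 9.32% of high-score and 12.5% of other cells in control, and in 17.4% and 19.9% in sonKD. It is also in the keratin and epithelial list, whose sum had log2 ratios of 0.66 and 0.71. Under 10 CPM were 6 of 9 trophectoderm and 7 of 10 mesoderm genes. The summed primitive endoderm list had log2 ratios of 0.48 (0.39 to 0.56) in control and 0.52 (0.43 to 0.61) in sonKD. For the summed trophectoderm list they were 0.68 (0.50 to 0.85) and 0.79 (0.63 to 0.94). The summed mesoderm list had 0.73 (0.58 to 0.89) and 0.87 (0.67 to 1.06). Of 10 transcripts listed for the 2C-like state, 8 were at 0 in the 4 sums, and only Ddit4l reached 10 CPM. It stood at 96.2 against 13.4 CPM in control and 116 against 17.7 in sonKD, while Zscan4c, Zscan4d and Zscan4f had no UMI.

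Long genes were higher by their median, and so were the nuclear RNAs Malat1 and Neat1. Of 203 genes that span at least 300 kb, 81 (39.9%) were at least 1.5-fold higher in both libraries and 0 lower, against 11.9% higher and 1.2% lower over all genes, with median log2 ratios of 0.58 and 0.57. The median ratio went from -0.19 in control and -0.13 in sonKD for the shortest 10% of genes by span to 0.49 and 0.45 for the longest. Spearman's rho with span, across genes, was 0.50 and 0.44, and with transcript length it was 0.41 and 0.38. Whether intronic reads were counted is not given in the sources used here, and the levels of long genes, 5 of the score genes among them, depend on it. Malat1, a long noncoding RNA retained in the nucleus, was at 4504 against 2480 CPM in control and 3672 against 2049 in sonKD. Neat1, the scaffold RNA of paraspeckles and a known p53 target, was at 174 against 80.1 CPM and 382 against 208. Of the 10 listed nuclear long noncoding RNAs at 10 CPM, 3 were at least 1.5-fold higher in both libraries, Malat1, Neat1 and Kcnq1ot1, and 0 lower. That is 30% higher against 11.9% over all genes. With TMM factors 0 of the 10 were past 1.5-fold in both libraries. The list's medians were 0.33 and 0.14, and their mean was -0.05 with TMM factors. All 13 mitochondrial genes had positive ratios in both libraries, with medians of 0.36 and 0.32, but 1 of 13, mt-Co3, was past 1.5-fold in both, which is 7.69% against 11.9% over all genes. The ribosomal protein genes had medians of -0.10 in each library. With the other cells weighted to the Malat1 share of the high-score cells, the mean over both libraries of the p53 list's median was 1.49, where it had been 1.52, and that of the long genes was 0.34, where it had been 0.58. Weighted to the mitochondrial share, these values were 1.20 and 0.46. With TMM factors the long genes were at 0.27 and the mitochondrial genes at 0.05.

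**Figure D4:**
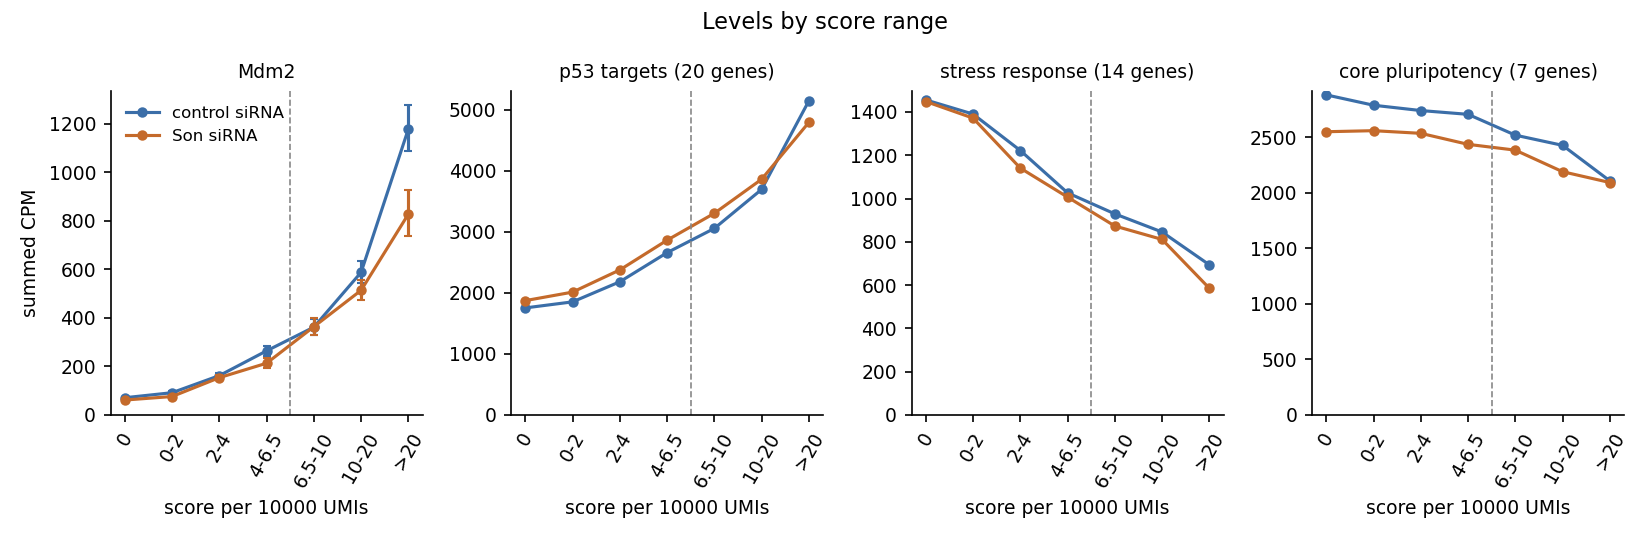
Summed level (CPM) of Mdm2, of the p53 target list, of the integrated stress response list and of the core pluripotency list in cells grouped by score, in both libraries; the dashed line marks the limit of 6.52 and bars on Mdm2 are exact Poisson 95% intervals. Levels change step by step across the limit, with Mdm2 going from 71.1 to 1179 in control.

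Across the whole range of scores the levels moved gradually. In control, Mdm2 was at 71.1 CPM (67.2 to 75.1) in the 2319 cells with a score of 0, at 264 (245 to 285) in the 326 cells just below the limit, at 362 (332 to 394) in the 202 cells from the limit to a score of 10 and at 1179 (1087 to 1276) in the 92 cells above 20. In sonKD the same ranges gave 61.5, 213, 364 and 828 CPM. The p53 list as a whole went from 1753 to 5145 CPM in control and from 1873 to 4792 in sonKD. The integrated stress response list went the other way, from 1456 to 694 CPM in control and from 1448 to 585 in sonKD. Core pluripotency genes went from 2883 to 2109 CPM in control and from 2551 to 2094 in sonKD. The median share of mitochondrial UMIs went from 3.37% to 5.96% in control and from 3.90% to 6.33% in sonKD over the same ranges, and its part in the other trends was not tested.

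Cell cycle phase was called from S and G2/M gene lists at 2500 UMIs per cell, with cells high in neither list called G1. The G1 share was 20.3% (16.8 to 24.3%) of high-score cells and 3.08% (2.60 to 3.63%) of other cells in control, and 29.2% (24.1 to 34.7%) and 5.14% (4.29 to 6.09%) in sonKD. The S share was lower, 36.9% against 50.2% in control and 38.3% against 48.9% in sonKD. The G2/M share was 42.8% against 46.8% and 32.6% against 45.95%, and the control intervals overlap. Without thinning the G1 shares were 19.7% against 2.04% and 26.8% against 2.96%. The 41 S phase genes at 10 CPM had median log2 ratios of -0.17 and -0.25, with 0 past 1.5-fold in both libraries, and the largest in size were those of Gins2 and Rpa2. With TMM factors 9 of the 41 were lower and 0 higher, against 825 lower and 458 higher of 8324 over all genes. The 52 G2/M genes had medians of -0.02 and -0.06, and Psrc1, Ckap2 and Gtse1 were at least 1.5-fold higher, which is 5.77% of the list against 11.9% over all genes. With TMM factors 7 of the 52 were lower and 3 higher. Gtse1 is also in the p53 list. Phase calls also read free RNA, and no statement on cycling is made from them.

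**Figure D5:**
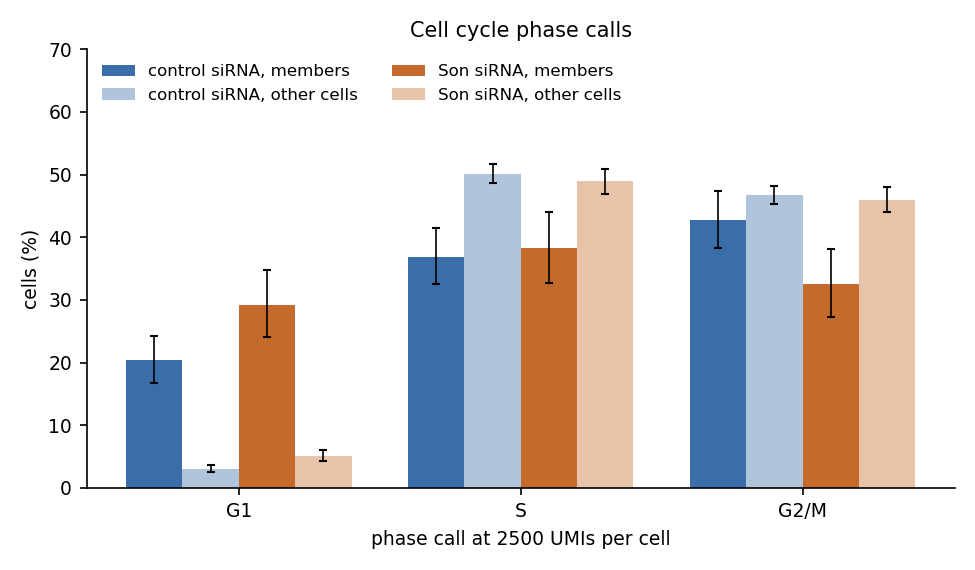
Share of cells called G1, S and G2/M at 2500 UMIs per cell (percent), for high-score cells (full colour) and other cells (pale) of each library, with exact binomial 95% intervals. G1 calls reach 20.3% and 29.2% in high-score cells against 3.08% and 5.14% in other cells.

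High-score cells detected fewer genes than other cells as sequenced, with medians of 2609 against 2903 in control and 3139 against 3506 in sonKD. At 2500 UMIs per cell the order was the opposite, 1395 against 1344 and 1341 against 1286.

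Within the high-score cells, sonKD was compared with control, as 1 library against 1. Son had a log2 ratio of sonKD over control of -0.39 (-0.57 to -0.21) in the high-score cells and -0.71 (-0.77 to -0.65) in the other cells. The siRNA target was thus lower in sonKD in both sets of cells, and the intervals of the ratios do not overlap, though counting error is all they cover. Son overlaps Donson on the opposite strand. Of 8343 genes, 172 (2.06%) were at least 1.5-fold higher and 351 (4.21%) at least 1.5-fold lower in sonKD within high-score cells, against 83 and 115 within the other cells. The high-score sums are smaller, and the median width of a gene's interval was 0.76 against 0.24 on the log2 scale, so these counts are not comparable. With TMM factors the counts within high-score cells were 278 and 190. The p53 list had median ratios of -0.03 in high-score cells and -0.02 in other cells, and Mdm2 had -0.26 (-0.36 to -0.15) and -0.16 (-0.23 to -0.09). Among the score genes, the ratios within high-score cells ran from -0.27 for Serpine2 to 0.10 for Grip1, with a median of -0.08. In the other cells they ran from 0.04 for Stox2 to 0.42 for Anks1b, with a median of 0.12. The same limit on the sum of these genes chose the cells of both libraries. The ratios of these genes are therefore set in part by that choice, and an effect of the siRNA on them was not tested.

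Hist1h2ap, Rps27, Rpl29 and Hist1h3e were among the 5 highest ratios of sonKD over control within high-score cells. Hist1h2ap, a replication-dependent histone gene, had a log2 ratio of 2.43 (2.06 to 2.81) in high-score cells and 2.39 (2.30 to 2.49) in other cells. Rpl29 had 1.98 and 1.99. These genes have near-identical copies, so how reads were assigned to them is uncertain. The 5 lowest were Egln3, Sema4d, Zdhhc16, Mei4 and Spire1. These were picked by the ratio itself and stood at 6.04 to 8.17 CPM in sonKD high-score cells. Their difference from the other cells was not tested. Egln3, an oxygen-sensing prolyl hydroxylase gene, was at 24.7 CPM in control and 7.46 in sonKD high-score cells, a ratio of -1.73 (-2.50 to -1.02), and at 17.6 and 13.8 in other cells, a ratio of -0.35 (-0.53 to -0.17). Zdhhc16 had -1.32 (-2.10 to -0.60) in high-score cells and -0.08 (-0.26 to 0.09) in other cells. Neat1 was higher in sonKD in both sets of cells, with 1.13 (0.98 to 1.29) and 1.38 (1.32 to 1.44).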

How the data were processed

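Both libraries were deposited as matrices of raw UMI counts, with genes in rows and barcodes in columns. The authors counted with Cell Ranger 7.1.0, per the file headers, and the submitters' processing notes name mm10. The treatment of intronic reads and of strand is not given in the sources used here. All barcodes are listed, and cells were selected as stated in the report.

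Counts were summed over high-score and other cells per library and scaled to CPM. Log2 ratios have no pseudocount; counts below 3 were raised to 3. Genes needed a mean of 10 CPM over the 4 sums, and the 9 score genes were left out of all counts of genes. With 1 library per group a gene counts as higher or lower past 1.5-fold in both libraries. Intervals at 95% are exact Poisson for sums, Clopper-Pearson for shares and conditional binomial for ratios. The score, the gene lists and the cells were chosen with earlier results of these data known. Named genes are the score genes, 9 fixed genes, the 12 highest and lowest, the 2 farthest of each list and the 5 highest and lowest of sonKD over control; other list genes were named after their values were seen. A gene this rule names is not reported here. Scrublet (scanpy 1.11.5) called 3 control and 1 sonKD barcodes, which is no working call, so doublets were left in and removed by rate only as an alternative. TMM factors came from edgeR 4.0.16, and ratios were tested on simulated data.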

Additional observations from a re-analysis of the deposited data

Results flagged for a closer look

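Egln3 moved opposite ways in the 2 libraries. Its log2 ratio of high-score over other cells was 0.49 (0.13 to 0.83) in control and -0.89 (-1.59 to -0.25) in sonKD, each from 1 library. It rests on 77 UMIs in the control and 21 UMIs in the sonKD high-score cells, it was singled out among the named genes by this difference, and the difference was not tested.

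Barcodes left out for more than 10% of UMIs in mitochondrial genes also carried the score genes. Of 625 such barcodes in control, 120 reached the score limit, or 19.2% (16.2 to 22.5%), against 9.48% of kept control cells. Of 1056 in sonKD, 180 did, or 17.0% (14.8 to 19.5%), against 10.9% of kept sonKD cells. Their median depth was 2973 and 3140.5 UMIs, at which the limit corresponds to about 2 UMIs. The summed level does not depend on a limit per barcode, and the 9 genes stood at 387 CPM in these control barcodes and 332 in sonKD, against 212 and 230 over the kept cells. Mdm2 was at 239 and 219 CPM there, between its levels in the kept high-score cells (582 and 487) and the other kept cells (104 and 93.1). The summed p53 list was lower there, at 1732 and 1918 CPM, against 2041 and 2226 over the kept cells.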

How the results depend on the processing

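No paired analysis was possible because each group is 1 library and the results come from no test. The 996 genes higher and 100 lower in both libraries became 515 and 31 with at most 5% of UMIs in mitochondrial genes. For the top 20% of cells the counts were 632 and 29, and with TMM factors 458 and 825. At a mean of 50 CPM they were 280 and 55, of 3352 genes tested in place of 8343. With no filter on low values, 11293 of 23156 genes were higher and 197 lower. There the floor on low counts sets the ratio of genes with almost no UMIs in either set of cells. High-score sums are smaller, so such genes come out as higher, and the 11293 does not measure how many genes differ. The lower genes alone moved past 1.5 times to 60 from 5000 UMIs, 325 for the top 5% of cells, 43 with the score from cells thinned to 2500 UMIs and 165 with the mean of CPM per cell. Under alternatives chosen after seeing the data, weighting the other cells by mitochondrial share gave 625 and 43, and weighting by p53 target share gave 14 lower genes. The p53 list's median log2 ratio, averaged over both libraries, stayed positive in each of the 17 alternatives. It was 1.52 in the main setting. The medians of the genes' own lower and upper interval limits, averaged over both libraries, served as its range. It left that range at 1.21 with at most 5% mitochondrial UMIs, 1.77 for the top 5% of cells and 1.26 for the top 20%. It also did so at 1.32 with the thinned score, 1.23 with TMM factors and 1.20 weighted by mitochondrial share. The share of high-score cells was 4.64% in control and 5.64% in sonKD for the top 5%, and 19.4% and 21.1% for the top 20%. Thinning reversed the difference in genes per cell, to 51 more in control and 55 more in sonKD. Within high-score cells TMM factors gave 278 genes higher and 190 lower in sonKD. Thinning before scoring kept 539 of the 770 cells. The causes were not tested. Depth limits the choice of cells, since a score near the limit is a few UMIs.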
